A study of Mus musculus with 6 samples.

Results

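Hsd3b1 and Hsd3b6 are neighbouring mouse genes for 3-beta-hydroxysteroid dehydrogenase, and both are known to be active in Leydig cells, the steroid-producing cells between the seminiferous tubules of the testis. They are 2 of the 55536 genes in a table of testis RNA-seq counts, and both were among the 20744 genes with enough counts to be tested. The pair was selected on its counts in the double knockout and WT libraries, because its members move in opposite directions in double knockout testis, and comparisons that involve the double knockout are given as a description with no test. The P2KO libraries were not used in that choice, although the WT libraries they were compared with were.

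The libraries came from testes of 4-month-old mice of 3 genotypes, with 2 mice and so 2 libraries per genotype, all from homozygous lines that share the FVB/NJ background. WT mice were FVB/NJ. P2KO mice lacked Padi2 through a gene trap, in which LacZ and neomycin sequence replaced the coding part of exon 1. DKO mice (labelled Padi2/Padi4 double KO) carried that same Padi2 allele and, in addition, a 4-nucleotide deletion in exon 1 of Padi4 that had been made with CRISPR/Cas9 in P2KO embryos. Padi2 and Padi4 encode peptidylarginine deiminases, which turn arginine residues of proteins into citrulline. The DKO mice represented a single established strain, so what the strain carries besides the Padi4 deletion cannot be told apart from the deletion itself. The comparison was made in the study to ask whether loss of these enzymes alters gene expression in the adult testis, androgen-related genes included.

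Total counts per library ran from 21939393 to 27306679, the TMM scaling factors ran from 0.984 to 1.02, and the libraries of a genotype correlated at 0.993 across genes. Padi4 had 20 and 43 counts in WT, 11 and 10 in P2KO and 4 and 4 in DKO, and Padi2 had 47 and 64, 100 and 55, and 59 and 83. Padi2 was thus no lower in the P2KO and DKO libraries than in WT. These are counts over the whole gene, the part of exon 1 that was replaced was not counted separately here, and they do not check the labels for Padi2.

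A 3-beta-hydroxysteroid dehydrogenase oxidises the 3-beta-hydroxyl group of a steroid and moves its double bond, which turns pregnenolone into progesterone and dehydroepiandrosterone into androstenedione. No testosterone is made without that step. The mouse has several such enzymes, encoded by a cluster of genes. Hsd3b1 is known as the form of the gonads and the adrenal cortex, and Hsd3b6 as a form that Leydig cells of the adult testis gain, while other members of the family serve mainly liver and kidney.

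In GRCm38 both genes lie on the minus strand of chromosome 3. Hsd3b1 (ENSMUSG00000027871) occupies chr3:98852194-98859794, and Hsd3b6 (ENSMUSG00000027869) occupies chr3:98805504-98814443, 37.75 kb away. No other annotated gene overlaps either of them. The longest coding sequence of each gene is 1122 bases long with its stop codon, which gives 373 codons, and both end in the last exon of the transcript, the fifth in Hsd3b1 and exon 4 in Hsd3b6.

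Because the finding rests on telling reads of the pair apart, their most alike stretch is shown. The coding sequences align with no gap, and 1010 of the 1122 bases are identical (90.02%). The other 112 bases differ, and the longest identical run is 72 bases. Reads were 150 bases long, and across the 973 coding windows of that length the number of differing bases ran from 7 to 28, with a median of 14. The first of the 47 windows with only 7 differences covers coding bases 162 to 311, which lie in exons 4 and 5 of Hsd3b1 (chr3:98853363-98856142, with an intron between) and exons 3 and 4 of Hsd3b6 (chr3:98806671-98807913, likewise). It is printed 5′ to 3′ as in the transcript, from the GRCm38 reference transcripts, with the differing bases in capitals.
Hsd3b1: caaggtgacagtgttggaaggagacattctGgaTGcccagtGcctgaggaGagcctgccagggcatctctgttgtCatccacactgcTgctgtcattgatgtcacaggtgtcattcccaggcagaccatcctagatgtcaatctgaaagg
Hsd3b6: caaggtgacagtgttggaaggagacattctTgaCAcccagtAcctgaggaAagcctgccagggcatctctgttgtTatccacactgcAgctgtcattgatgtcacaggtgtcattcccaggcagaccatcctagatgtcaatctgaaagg
No window of a read's length is identical between Hsd3b1 and Hsd3b6. The reference is not the FVB/NJ strain, and differences of that strain from it were not examined.

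Hsd3b6 is more like Hsd3b3 (94.47% of coding bases) and Hsd3b2 (94.39%) than like Hsd3b1, and the longest run that its transcripts share with Hsd3b3 is 155 bases, slightly more than a read. Hsd3b1 shares 89.3% of its coding bases with each of Hsd3b2 and Hsd3b3. Its closest other stretch is in Gm12431, 95.808% identical over 167 bases with a longest run of 99 bases, and that gene had at most 4 counts in any library. A read that fits several places equally well is left out by STAR's gene counting, and the number of such reads was not analysed here.

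Hsd3b1 had its highest level in WT, an intermediate level in P2KO and its lowest level in DKO. The deposited counts were 1741 and 2483 in WT, 1993 and 1762 in P2KO, and 1446 and 1614 in DKO. After scaling for library size these were normalized counts of 1961 and 2299 in WT, 1768 and 1876 in P2KO, and 1385 and 1711 in DKO. The library DKO 1 was the lowest of all and WT 2 the highest, and no genotype overlapped another. With 2 libraries per genotype this is common, since 37.5% of all tested genes did not overlap between P2KO and WT, 43.2% between DKO and WT and 42.8% between DKO and P2KO, and the DKO and WT values served to choose the pair, so nothing is read from it. The means were 2130 ± 238 in WT, 1822 ± 76.4 in P2KO and 1548 ± 231 in DKO (SD, n = 2 each). The DKO mean differed from WT by -27.3%, a log2 difference in mean normalized count of -0.46 against a pooled SD between replicates of 0.191. Relative to P2KO the log2 difference was -0.23 against a pooled SD of 0.158, and it was -0.39 without DKO 2 and -0.094 without DKO 1.

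Hsd3b6 had a different order, with its highest level in DKO and its lowest in P2KO. Its counts were 1414 and 1776 in WT, 1640 and 1239 in P2KO, and 2373 and 1900 in DKO. The normalized counts were 1593 and 1644 in WT, 1455 and 1319 in P2KO, and 2273 and 2014 in DKO. Both DKO libraries lay above all 4 of the others, and both P2KO libraries lay below the WT libraries. The means were 1618 ± 36.2 in WT, 1387 ± 95.9 in P2KO and 2144 ± 183 in DKO (SD, n = 2 each). The DKO mean was 32.5% above WT, a log2 difference of 0.41 against a pooled SD of 0.0901, and 1.55-fold that of P2KO, a log2 difference of 0.63 against 0.112. Without DKO 1, the library highest in Hsd3b6 and lowest in Hsd3b1, the log2 difference from WT was 0.31 for Hsd3b6 and -0.32 for Hsd3b1.

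**Figure D1:**
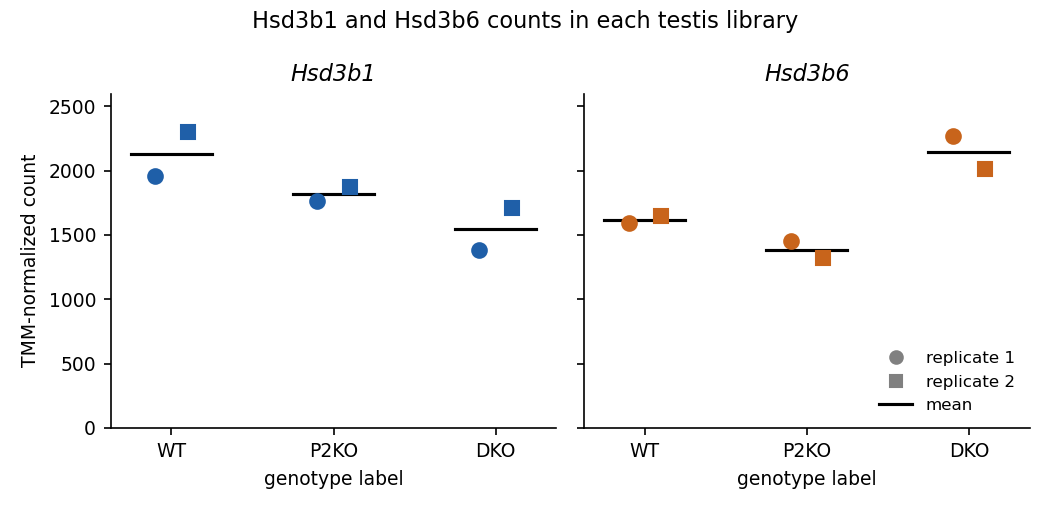
TMM-normalized counts (vertical axes) of Hsd3b1 and Hsd3b6 in each library, by genotype label on the horizontal axes, with circles for replicate 1, squares for replicate 2 and a line at the mean of the 2 libraries. The Hsd3b1 means step down from 2130 in WT to 1548 in DKO, whereas both DKO libraries of Hsd3b6, at 2014 and 2273, lie above the other 4.

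Expressed per kb of exon, so that the 2 genes can be set side by side, Hsd3b1 stood at 46.8 ± 5.24 CPM (counts scaled to 1 common library size) per kb in WT, 40.0 ± 1.68 in P2KO and 34.0 ± 5.06 in DKO. Hsd3b6 stood at 36.6 ± 0.818 CPM per kb in WT, 31.4 ± 2.17 in P2KO and 48.5 ± 4.14 in DKO (SD, n = 2 each). Hsd3b1 was thus the higher of the pair in WT and P2KO, and Hsd3b6 in DKO. Among the 20744 tested genes ranked by this level, Hsd3b1 moved from rank 1463 in WT to 1673 in P2KO and 1964 in DKO. Hsd3b6 moved from rank 1832 in WT to 2110 in P2KO and 1410 in DKO.

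The balance between the genes is read most directly within a library, since their ratio does not depend on how libraries are scaled. Hsd3b6 made up 44.8% of the counts of the pair in WT 1 (95% Wilson interval 43.1 to 46.6) and 41.7% in WT 2 (40.2 to 43.2). It made up 45.1% in P2KO 1 (43.5 to 46.8) and 41.3% in P2KO 2 (39.5 to 43.1). In DKO 1 it made up 62.1% (60.6 to 63.7) and in DKO 2 it made up 54.1% (52.4 to 55.7). Hsd3b6 was the minority in all 4 WT and P2KO libraries and the majority in both DKO libraries. The DKO libraries also differed from each other by more than their intervals, which cover counting error only. The mean shares were 43.3% ± 2.20 in WT, 43.2% ± 2.73 in P2KO and 58.1% ± 5.70 in DKO (SD, n = 2 each).

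The count of Hsd3b6 per count of Hsd3b1 was 0.812 and 0.715 in WT, 0.823 and 0.703 in P2KO, and 1.64 and 1.18 in DKO. The mean log2 ratio in P2KO differed from WT by -0.0028, far less than the pooled SD of 0.146, and with leave-outs of a WT or P2KO library the difference ran from -0.12 to 0.11. The mean log2 ratio in DKO was 0.87 above WT, a 1.82-fold difference in the ratio, against a pooled SD of 0.257. It was also 0.87 above P2KO. Comparisons with WT and with P2KO share the DKO libraries, so the pair of values is not 2 separate observations. Leaving out DKO 1 lowered the difference from WT to 0.63, and leaving out DKO 2 raised it to 1.11. With 2 libraries against 2 the smallest two-sided p of an exact permutation test is 0.333, so no such test could pass 0.05.

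The summed level of the pair was 3554 and 3943 normalized counts in WT, 3222 and 3195 in P2KO, and 3658 and 3725 in DKO. The DKO libraries lay between the WT libraries, and the P2KO libraries lay below them. The sum in DKO differed from WT by -1.51%, a log2 difference in mean of -0.02 against a pooled SD of 0.0760. In P2KO it differed by -14.4%, a log2 difference of -0.22 against a pooled SD of 0.0751. A large difference in the ratio between WT and DKO, with opposite differences that offset each other in the sum, is built into the choice of a pair that moves in opposite directions, and nothing is drawn from it.

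**Figure D2:**
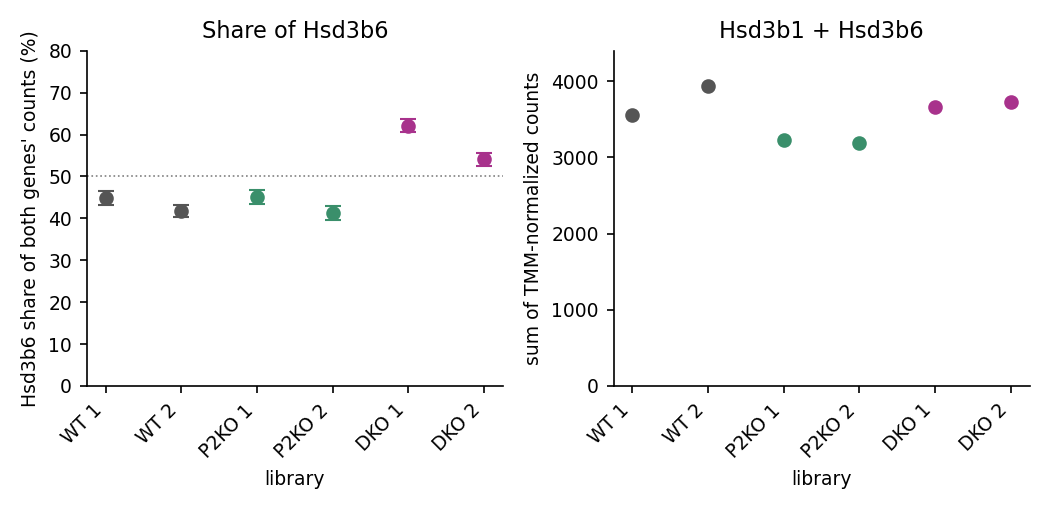
Left, Hsd3b6 as a percentage of the counts of Hsd3b1 and Hsd3b6 in each of the 6 libraries, with 95% Wilson intervals as bars and a dotted line at 50%. Right, the sum of the TMM-normalized counts of both genes in the same libraries. The DKO shares of 62.1% and 54.1% are the only ones above the line, whereas the DKO sums of 3658 and 3725 lie between the WT sums.

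P2KO against WT is the comparison in which both genes could be tested. The WT libraries had served to choose the pair, so the WT side of this test is not free of that choice. Hsd3b1 was lower in P2KO by a fitted log2 fold change of -0.23 (SE 0.0800), with an adjusted p of 0.333 in edgeR's quasi-likelihood fit after Benjamini-Hochberg adjustment over all tested genes. Hsd3b6 was lower by nearly the same amount, with a fitted log2 fold change of -0.22 (SE 0.0731) and an adjusted p of 0.285 in the same fit. Neither gene passed the threshold of an adjusted p of 0.05. The P2KO and WT libraries did not overlap for either gene, which was so for 37.5% of all tested genes. In that comparison 0.198% of all tested genes were called higher and 0.14% lower. The result for Hsd3b1 depended on the WT libraries. Without WT 1 its log2 fold change was -0.34 and its adjusted p 0.00484, and without WT 2 they were -0.11 and 0.929, while the adjusted p under the other alternatives ran from 0.151 to 1.

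The remaining genes of the family were almost silent in these libraries. Hsd3b3, Hsd3b4 and Hsd3b5, known mainly as liver and kidney forms, had 0 counts in every library, which allows up to 3 counts each. Hsd3b2 had 1 count in each of 3 libraries and 0 in the rest. Hsd3b7, an enzyme of bile acid synthesis on chromosome 7, had 3 to 7 counts per library. Gm4450 and Gm10681, gene models of the cluster with a coding sequence of the same length, had 5 to 15 counts and 0 counts. Hsd3b1 with 11039 counts over the 6 libraries and Hsd3b6 with 10342 therefore held nearly all counts of the cluster, which spans 414.12 kb. Within 1 Mb of either gene, 11 of the 49 other genes in the table were tested. In edgeR's test none of the 11 was called in any of the 3 comparisons, and none was called by DESeq2, while at an unadjusted p under 0.05 there were 2 in P2KO against WT, 1 in DKO against WT and 1 in DKO against P2KO. Over all 20744 tested genes, 8.57%, 14.1% and 11.8% had an unadjusted p under 0.05 in these comparisons. The median log2 fold change of these neighbours in DKO against WT was 0.08.

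**Figure D3:**
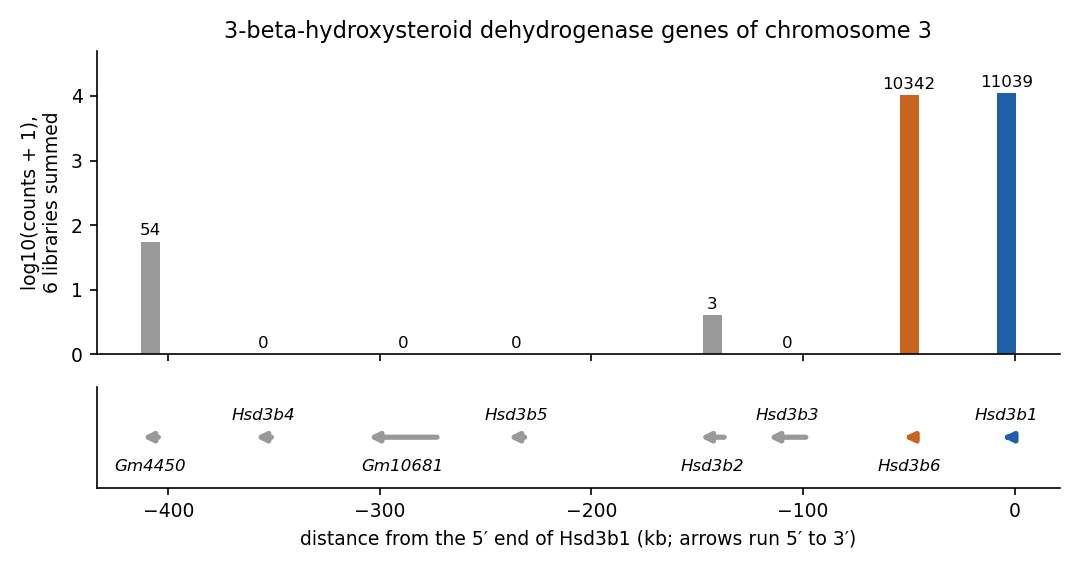
Counts summed over the 6 libraries, plus 1, on a log10 axis (top) for the 8 genes of the chromosome 3 cluster, placed by distance in kb from the 5′ end of Hsd3b1, with arrows for each gene's extent and direction (bottom). Hsd3b1 (11039 counts) and Hsd3b6 (10342 counts), side by side at the right, rise above the others, of which Gm4450 has 54 counts and Hsd3b2 has 3.

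The other genes of testosterone synthesis were read for the steps before and after 3-beta-hydroxysteroid dehydrogenase. Of 13 such genes, 11 were tested, and Akr1c6 was at 0 in every library. In DKO against WT, 3 of the 11 were called higher and none lower, beside 2.06% and 1.16% of all tested genes, with a median log2 fold change of 0.08 over the list and -0.0048 over all genes. DESeq2 called none of the 11. Star, which moves cholesterol to the inner mitochondrial membrane, had normalized counts of 2175 and 1967 in WT, 2825 and 2054 in P2KO, and 2968 and 2923 in DKO. Its log2 fold change in DKO against WT was 0.51 (SE 0.0857, adjusted p = 0.000159 in edgeR's test), and its adjusted p was 0.186 with DESeq2, in a range of 3.35e-11 to 0.186 over the alternatives with all libraries.

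Cyp11a1, which cleaves the cholesterol side chain, had normalized counts of 2564 and 2644 in WT, 3181 and 3187 in P2KO, and 3558 and 2751 in DKO. Cyp17a1, the hydroxylase and lyase that acts on the products of Cyp11a1 and of 3-beta-hydroxysteroid dehydrogenase, had 9205 and 8547 in WT, 10524 and 9146 in P2KO, and 12655 and 9389 in DKO. Both were highest in DKO 1. Cyp11a1 was higher in DKO than in WT by a log2 fold change of 0.28 (SE 0.0762, adjusted p = 0.0324 in edgeR's test) and Cyp17a1 by 0.31 (SE 0.0803, adjusted p = 0.0193). Without DKO 1 these were 0.07 and 0.08, and neither call remained. Neither was called by DESeq2. The call of Cyp11a1 also ended with upper-quartile scaling, with the replicate block and with WT and DKO fitted alone. Its log2 fold changes there were still 0.25, 0.27 and 0.27. In P2KO against WT, Cyp11a1 had a log2 fold change of 0.29 (SE 0.0761) and Cyp17a1 of 0.15 (SE 0.0803), neither called. In DKO against P2KO these were -0.01 and 0.16, so Cyp11a1 stood about as high in P2KO as in DKO.

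Hsd17b3, which makes testosterone from androstenedione, had a log2 fold change of 0.08 (SE 0.0835) in DKO against WT, and Fdx1, which passes electrons to Cyp11a1, had -0.06 (SE 0.0898). Neither was called. In P2KO against WT none of the 11 was called by either tool, and 3 had an unadjusted p under 0.05, as had 8.57% of all tested genes. In DKO against P2KO, where 0.607% of all tested genes were called higher and 0.598% lower, none of the 11 was called by either tool, and 4 had an unadjusted p under 0.05, as had 11.8% of all tested genes.

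**Figure D4:**
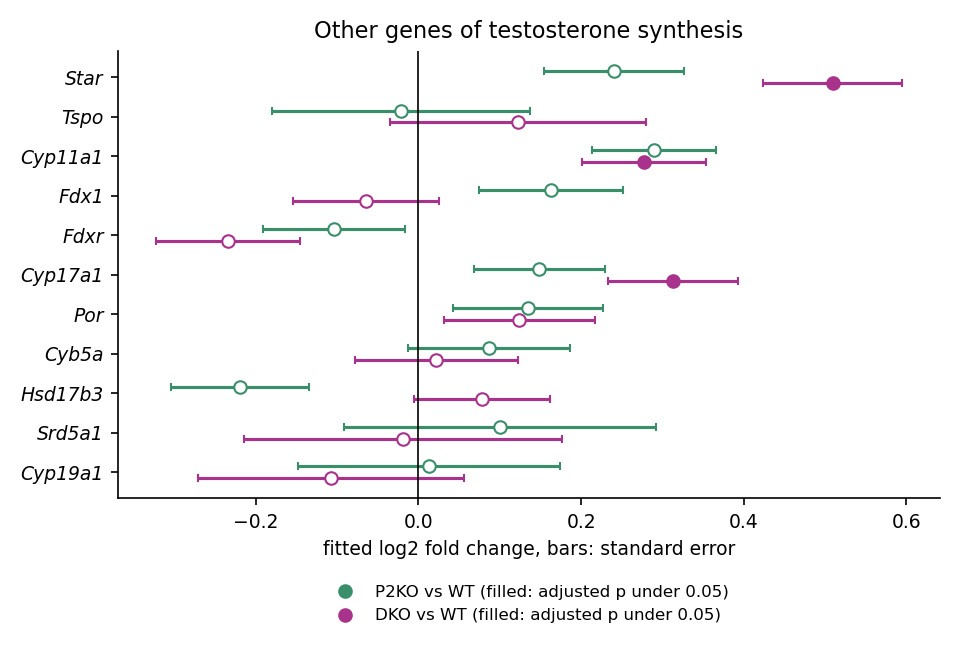
Fitted log2 fold changes (horizontal axis) of the 11 tested genes of testosterone synthesis other than Hsd3b1 and Hsd3b6, in P2KO and in DKO against WT, with standard errors as bars and filled points for an adjusted p under 0.05 in edgeR's test. Star, Cyp11a1 and Cyp17a1 in DKO are the only filled points, at 0.51, 0.28 and 0.31. The unfilled P2KO points of these genes lie at 0.24, 0.29 and 0.15, and the comparisons share the WT libraries.

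Of 17 genes for the luteinizing hormone receptor, its signalling and the transcription factors known to act on steroidogenic genes, all were tested and none was called in any comparison by edgeR or DESeq2. At an unadjusted p under 0.05 there was 1 of the 17 in each comparison, beside 8.57% of all tested genes in P2KO against WT, 14.1% in DKO against WT and 11.8% in DKO against P2KO. The most highly counted of them were the phosphodiesterase gene Pde8a, the protein kinase A subunit genes Prkar1a and Prkaca, the clock gene Cry1 and the nuclear receptor gene Nr4a1. Their log2 fold changes in DKO against WT were 0.10 for Pde8a, -0.06 for Prkar1a, 0.0020 for Prkaca, 0.02 for Cry1 and 0.10 for Nr4a1. Lhcgr, the receptor gene itself, was chosen for mention after its values were seen. Its normalized counts were 238 and 276 in WT, 252 and 287 in P2KO, and 204 and 193 in DKO. The log2 fold change of Lhcgr in DKO against WT was -0.38 (SE 0.131, adjusted p = 0.128 in edgeR's test).

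Bulk testis cannot tell fewer cells of a type from less RNA per cell, so the level of other Leydig cell genes is given beside the pair. Of 15 genes listed as markers of adult Leydig cells, Star, Cyp11a1, Cyp17a1 and Hsd17b3 among them, 14 were tested. In DKO against WT, 7 were called higher and 1 lower, beside 2.06% and 1.16% of all tested genes. Those called higher were Star, Cyp11a1, Cyp17a1, Fads1 and 3 kallikrein genes. The kallikrein genes Klk1b21, Klk1b24 and Klk1b27, known from Leydig cells, rose by log2 fold changes of 1.33, 1.31 and 1.53. They were put on the list with their rise already known, so their part in the number of calls was fixed in advance. They belong to a family of near-identical genes, so their counts are uncertain. Fads1, a fatty acid desaturase gene, rose by 0.49 (SE 0.0918, adjusted p = 0.000627 in edgeR's test), but was 0.22 and no longer called without DKO 1. In P2KO against WT, Fads1 was higher by 0.38 (SE 0.0919, not called), and in DKO against P2KO by 0.11. Ptgds, a prostaglandin D synthase gene, fell by 0.25 on the log2 scale (SE 0.0608, adjusted p = 0.0130 in edgeR's test) and was no longer called without either DKO library, while its value moved little. The median over the 14 genes was 0.26, and over the 11 without the kallikrein genes it was 0.08. DESeq2 called 4 of them, the 3 kallikrein genes and Ptgds, and did not call Fads1. In DKO against P2KO the 3 kallikrein genes were again called higher and Ptgds lower, beside 0.607% and 0.598% of all tested genes. Of the 14 genes, 11 had an unadjusted p under 0.05 (9 higher and 2 lower), the 3 kallikrein genes among them. That is a larger share than the 11.8% of all tested genes. In P2KO against WT none of the 14 was called by either tool, with 6 at an unadjusted p under 0.05, as were 8.57% of all tested genes.

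The summed level of the 15 adult Leydig cell genes was 977 and 938 CPM in WT, 1110 and 1017 in P2KO, and 1245 and 1031 in DKO. The summed level of the 13 testosterone synthesis genes was 718 and 686 CPM in WT, 827 and 732 in P2KO, and 937 and 754 in DKO. DKO 1, the library with the most Hsd3b6 and the least Hsd3b1, was the highest in both sums. Star, Cyp11a1, Cyp17a1 and Hsd17b3 are on both lists, so the sums are not separate observations. Cyp17a1 was the most highly counted gene of each list, at a mean normalized count of 9911. The next was Cyp11a1 (2981) for testosterone synthesis and Ptgds (3754) for adult Leydig cells. The part of these sums in the shift of the pair was not tested.

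Markers of other cells that a testis sample holds, or that express 3-beta-hydroxysteroid dehydrogenases elsewhere, are given for comparison. Of 6 adrenocortical genes, Cyp11b1 was at 0 in every library, and Cyp11b2 and Akr1b7 had at most 2 and 3 counts. Cyp21a1, Mrap and Dab2 had 95 to 141, 56 to 120 and 81 to 154 counts per library. The adrenocortical sums ran from 10.9 to 14.0 CPM in WT, 11.7 to 14.0 in P2KO and 13.3 to 13.6 in DKO. The sums over 5 fetal Leydig cell genes stayed between 1.43 and 2.16 CPM in all libraries. Over 9 genes of Leydig progenitors and interstitial stroma they ran from 64.8 to 66.0 CPM in WT, 57.5 to 65.8 in P2KO and 68.7 to 72.8 in DKO. Sertoli cell genes summed to 874 to 929 CPM in WT, 910 to 943 in P2KO and 821 to 924 in DKO. Clu held most of that sum, with a mean normalized count of 17124, and the next gene had 1726. None of the tested genes on these lists, or on those for peritubular myoid cells, macrophages and endothelium, was called in any comparison by edgeR or DESeq2. Over the 42 tested genes of these 7 lists, 4 (9.52%) had an unadjusted p under 0.05 in P2KO against WT, beside 8.57% of all tested genes, and 3 (7.14%) in DKO against WT, beside 14.1%. In DKO against P2KO it was 10 (23.8%), 9 of them higher in DKO, beside 11.8% of all tested genes. The 5 endothelial genes had a median log2 fold change of 0.43 in DKO against WT, with 2 at an unadjusted p under 0.05, and summed to 26.1 to 27.8 CPM in WT, 28.1 to 28.5 in P2KO and 27.0 to 30.6 in DKO.

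Of 11 germ cell genes, 2 were called lower in DKO against WT, beside 1.16% of all tested genes, namely Prm1 (log2 fold change -0.22) and Tnp1 (-0.25), which package the DNA of spermatids, and DESeq2 called neither. Neither was called without DKO 1 or without DKO 2, nor Prm1 without WT 2. The log2 fold changes of Prm1 and Tnp1 were -0.20 and -0.22 without DKO 1, and -0.24 and -0.30 without DKO 2. That of Prm1 was -0.16 without WT 2. In P2KO against WT they were -0.20 for Prm1 and -0.22 for Tnp1, neither called, and in DKO against P2KO -0.02 and -0.04. The germ cell sums were 12439 to 12928 CPM in WT, 10966 to 12058 in P2KO and 11488 to 11570 in DKO. Prm2 was the most highly counted of these genes, at a mean normalized count of 124369. Of the 3 tested adipose genes, Car3 was called lower in P2KO against WT and higher in DKO against P2KO, beside 0.14% of all tested genes called lower in the former and 0.607% higher in the latter, with 10 and 30 counts in WT, 0 and 0 in P2KO and 8 and 14 in DKO. The call in DKO against P2KO ended without P2KO 1, P2KO 2 or DKO 2, and DESeq2 gave Car3 no adjusted p there. How far these differences in other cell types bear on Hsd3b1 and Hsd3b6 was not tested.

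The genes whose profile over the 6 libraries was most like that of each member were found among 12813 genes with a mean normalized count of at least 100, as a description. The measure was the Euclidean distance between log2 CPM values, each gene centred on its own mean. The 5 nearest to Hsd3b1 were 1700019M22Rik (distance 0.138), 4933439C10Rik (0.142), Fbxw27 (0.152), Zfp933 (0.166) and Dyx1c1 (0.169), the last of which is needed to assemble the dynein arms of cilia and flagella. The nearest of them, 1700019M22Rik, had normalized counts of 4054 and 4865 in WT, 3959 and 4339 in P2KO and 3140 and 3723 in DKO. It shared with Hsd3b1 a highest value in WT 2 and a lowest value in DKO 1.

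The 5 nearest to Hsd3b6 were Slfnl1 (0.194), Tmem234 (0.215), Aldh1a1 (0.217), Pigb (0.219) and Gsta3 (0.232). Aldh1a1 encodes an enzyme that makes retinoic acid from retinaldehyde, Pigb an enzyme of glycosylphosphatidylinositol anchor synthesis, and Gsta3 a glutathione transferase. The normalized counts of Aldh1a1 were 8354 and 8054 in WT, 8042 and 6957 in P2KO and 13384 and 10072 in DKO, so that DKO 1 was highest and P2KO 2 lowest, as for Hsd3b6. Zfp933, Slfnl1 and Tmem234 lie on chromosome 4, as do Padi2 and Padi4, and Fbxw27, Dyx1c1 and Pigb lie on chromosome 9. The share of either chromosome among the 12813 genes was not counted, so nothing is read from these positions. The distance between Hsd3b1 and Hsd3b6 themselves was 1.08, whereas the median gene lay 0.591 from Hsd3b1 and 0.683 from Hsd3b6. The pair was thus further apart than each member was from a typical gene, which follows from the way the pair was selected.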

How the data were processed

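RNA was isolated by the authors from testes of WT, P2KO and DKO mice (2 per genotype), and poly(A)-selected, strand-specific libraries were sequenced as pairs of 150-base reads. Per the labels and the study's methods, reads were trimmed with Trim Galore and cutadapt, aligned to GRCm38 with STAR and counted per Ensembl gene. The deposited table holds these counts for all 6 libraries, with no normalization and no filter; versions, and which of STAR's strand columns was taken, are not given in the sources used here. STAR's gene counting leaves out reads aligned to several places, so counts of genes with near-identical copies can be too low. Column names were matched to genotype and replicate by the labels.

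Counts were analysed with edgeR 4.0.16 and limma 3.58.1 in R 4.3.3: filterByExpr with a minimum count of 10 (20744 genes), TMM scaling, and glmQLFit and glmQLFTest on all 6 libraries with a term for genotype (3 residual degrees of freedom). Benjamini-Hochberg adjustment was applied to the p-values of all tested genes, and an adjusted p under 0.05 was a call. The SE of a log2 fold change is its size divided by the square root of F. To normalize, each count was divided by its library's TMM-scaled size over the geometric mean size. Values for Hsd3b1 and Hsd3b6 that involve DKO are log2 ratios of mean normalized counts. Mice are separate animals, but litters are not named in the labels, so p-values measure the spread between these samples.

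Positions, exon lengths and transcripts came from GENCODE mouse release M21 on GRCm38, where all gene identifiers were found. Hsd3b8 and Hsd3b9 were not analysed here. Coding sequences were aligned with Biopython 1.88 and similar transcripts found with BLAST+ 2.17.0.

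The pair, the gene lists, the tests and the alternatives were chosen with earlier results of these data known. Named genes are the Hsd3b family, genes of the lists called in any comparison, the 5 most highly counted of the lists for testosterone synthesis, the luteinizing hormone receptor and regulators, and adult Leydig cells, and the 5 most alike genes of each member. Akr1c6, Lhcgr, Clu, Prm2 and the adrenocortical genes were named outside this rule, with their values known. Hsd3b1 and Hsd3b6 were left out of the list counts. Alternatives were RLE and upper-quartile scaling, no filter, a mean of at least 50 counts, a replicate block, the 2 genotypes compared alone, DESeq2 1.42.0, a pseudocount of 1 in the ratio, and each library left out in turn.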

Additional observations from a re-analysis of the deposited data

How the results depend on the processing

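The directions of Hsd3b1 and Hsd3b6 in DKO against WT and against P2KO held with RLE and upper-quartile scaling and with no filter. That of their ratio held with a pseudocount of 1. All of them held with each library of the compared genotypes left out in turn. The mean-count filter, the replicate block, DESeq2 and the compared genotypes alone were not run for them. The pair was chosen for its opposite directions in DKO and WT, and these runs reuse the same counts. Nothing is therefore drawn from directions that held. With each library left out, Hsd3b1 ran from -0.62 to -0.32 (log2) in DKO against WT and from -0.39 to -0.094 in DKO against P2KO, and Hsd3b6 from 0.31 to 0.49 and from 0.53 to 0.71. In P2KO against WT, Hsd3b1 ran from -0.34 to -0.11, past the threshold only without WT 1, and Hsd3b6 from -0.30 to -0.16, never past it. Where 1 library was left in a group, it was assumed to vary like the other groups.

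Counts of called genes moved more. In P2KO against WT, 70 genes were called, 140 with no filter and 41 with DESeq2, and 53 to 311 with a library left out. In DKO against WT, 668 were called, 403 with DESeq2 and 250 to 1065 with a library left out. In DKO against P2KO, 250 were called, 579 with the 2 genotypes fitted alone, 162 with DESeq2 and 108 to 622 with a library left out. Of the listed genes, 1 was called in P2KO against WT, 6 with no filter, 0 with a mean of at least 50 counts, 2 with the 2 genotypes alone and 1 to 8 with a library left out. In DKO against WT it was 10, 4 with DESeq2 and 4 to 10 with a library left out, and in DKO against P2KO 5, 8 with the 2 genotypes alone and 4 to 10 with a library left out. The causes were not tested.

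With the replicate number as a block, 45 genes were called in P2KO against WT. Deviations of same-numbered libraries were nearly uncorrelated (-0.0572, 0.0574 and -0.0502), which cannot exclude a shared effect on a few genes. In every genotype replicate 1 had the higher Hsd3b6 share and the lower normalized Hsd3b1 count. Replicate 1 also had the higher sums of adult Leydig cell and testosterone synthesis genes in every genotype. Whether the numbers pair the libraries was not tested further.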
